A study of Homo sapiens with 4 samples.

Results

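Neuropilins, plexins and semaphorins form a family of guidance receptors and ligands, and 10 of its genes were followed here in LNCaP cells: the co-receptor genes NRP1 and NRP2, the receptor genes PLXNA1, PLXNA2, PLXNA3, PLXNB1 and PLXNB2, and the ligand genes SEMA3C, SEMA3F and SEMA4B. They were found by gene symbol among the 19205 gene rows of the deposited table, which held 9 of them. NRP2 had no row, so its expression is not analysed here. The set was chosen by the FPKM and counts of NRP1, which were higher in the HOXD13 libraries, so the values of NRP1 are a description with no test. The other members were listed as its relatives.

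LNCaP is an established line of human prostate cancer cells that responds to androgen, grown here in medium with serum. All cells had been infected with lentivirus and screened with puromycin. One group of 2 libraries carried the empty vector, called an empty vehicle in the labels, and the other group of 2 overexpressed HOXD13, a homeobox transcription factor of posterior and limb patterning. The labels do not say what promoter drove HOXD13, whether the cells were a clone or a pool, or whether replicates were separate cultures, so the spread behind each p-value is that between libraries and may be no more than technical.

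Semaphorins are secreted or membrane-bound ligands first known from axon guidance and later from vessels and tumours. Plexins are their main receptors, and the inner part of a plexin acts on small GTPases. Secreted class 3 semaphorins mostly need a neuropilin, which binds ligand and sits beside a class A plexin, whereas membrane-bound class 4 semaphorins mostly bind class B plexins directly. Neuropilins also bind VEGF and carry it to VEGF receptors. In prostate cancer, SEMA3C is known as an androgen-regulated ligand.

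The libraries held 6881110 to 8530487 expected counts. HOXD13 itself had 0 counts in each empty-vector library and 88 and 104 counts in the HOXD13 libraries. If the empty-vector libraries together are credited with 3 counts, it was at least 55.2-fold higher in CPM (counts scaled to library size), a bound for counting error only. The luminal prostate markers KLK3, FOLH1, TMPRSS2, KRT8, KRT18 and HOXB13 were all present in every library. KLK3, the gene of prostate-specific antigen, some of whose reads were divided with other genes, was at 2044 and 2074 FPKM with the empty vector and 3140 and 3255 FPKM with HOXD13. Of all 14112 genes with enough counts to be tested, 16.0% were called by the edgeR quasi-likelihood test (adjusted p under 0.05, Benjamini-Hochberg). Of the tested genes, 7.91% were called higher and 8.11% lower with HOXD13. Among the luminal markers named, KLK3 (log2 fold change 0.61), FOLH1 (0.20) and TMPRSS2 (0.75) were called higher and HOXB13 lower (-0.11). KRT8 (-0.04) and KRT18 (-0.03) were not called.

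NRP1 (gene ID 8829) was among the 2 most abundant members in every library. Its level in FPKM, fragments scaled to transcript length and library size, was 58.65 and 56.63 in the empty-vector libraries and 106.95 and 105.59 in the HOXD13 libraries. The groups were well apart, with means of 57.6 ± 1.43 and 106 ± 0.962 FPKM (SD, n = 2 in each group). The counts behind these levels were 2494 and 2200 with the empty vector and 5315 and 5119 with HOXD13, all whole numbers, so no reads were divided with another gene. In CPM the HOXD13 mean was 1.90 times the empty-vector mean, and in FPKM 1.84 times. The fitted log2 fold change was 0.92, and it ran from 0.87 to 0.93 over the 12 alternative settings.

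The length used for NRP1 was not the same in every library. RSEM, the program behind the counts, reports for each gene a length weighted by the estimated abundance of its transcripts. For NRP1 that length was 5496 and 5590 bases in the empty-vector libraries and 5770 and 5760 bases in the HOXD13 libraries. Both HOXD13 values lay above both empty-vector values. The transcripts listed for NRP1 include the short ones, at 1988 and 2213 bases in GENCODE release 29, that encode soluble forms without the membrane anchor, and long ones of 5407 to 5877 bases. The reads assigned to each transcript are not analysed here, so the share of soluble transcripts is not given. The length of PLXNB1 varied little, at 7242 and 7219 bases and at 7291 and 7250 bases, again with both HOXD13 values above, and that of SEMA4B lay between 3784 and 3814 bases with overlapping groups.

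Over the 4 libraries, the 5 genes with a pattern most like that of NRP1 were FSTL1, SLC16A3, SLC4A4, SYT4 and ACPP. Likeness was the Euclidean distance between log2 CPM deviations from each gene's mean, over the 9709 genes whose mean reached 5 FPKM. The distances of these 5 genes ran from 0.115 for FSTL1, a secreted glycoprotein gene, to 0.132 for ACPP, the prostatic acid phosphatase gene. SEMA3C stood 13th from NRP1 at 0.203, and PLXNA3 followed among the members at 0.504. The measure finds genes with a like difference between the groups, so it repeats what picked NRP1.

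**Figure D1:**
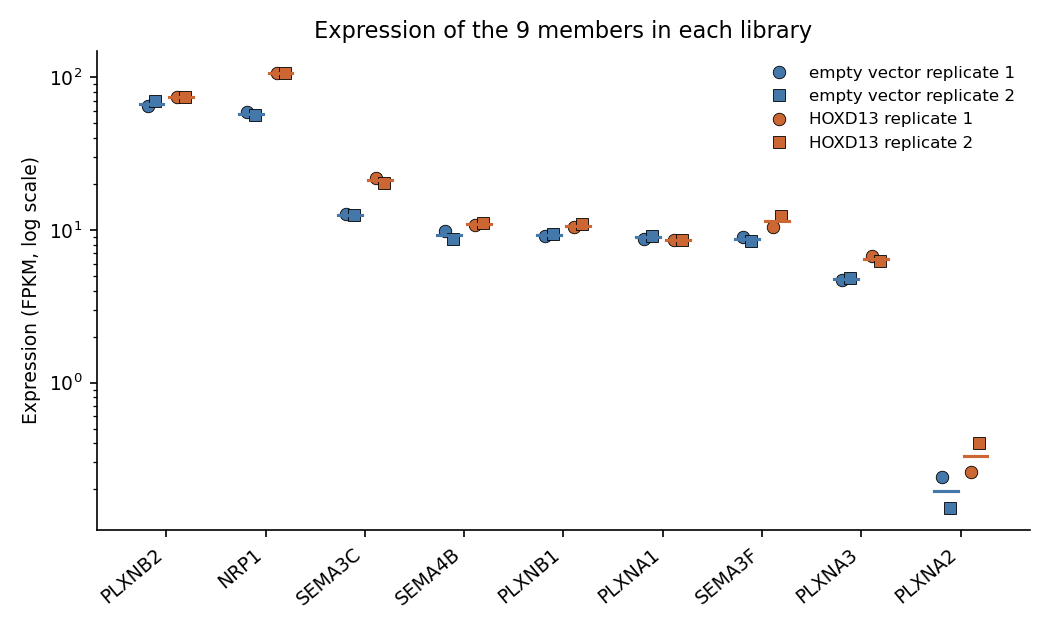
Expression in FPKM (log axis) of the 9 members with a row, by library. Each point is 1 library, and short lines are means of 2 libraries. NRP1, picked for its rise, moves from below PLXNB2 with the empty vector (57.6 against 66.8 FPKM) to above it with HOXD13 (106 against 73.7). SEMA3C is the next most abundant member in both groups.

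Of the ligand genes among the members, SEMA3C was the most abundant and had the largest fold change. SEMA3C (gene ID 10512) encodes a secreted class 3 semaphorin that binds neuropilins. It was at 12.68 and 12.43 FPKM in the empty-vector libraries and 21.85 and 20.35 FPKM in the HOXD13 libraries, so both HOXD13 values were above both others. Its means were 12.6 ± 0.177 and 21.1 ± 1.06 FPKM (SD, n = 2 each), and it rose by the test (log2 fold change 0.73, SE 0.0643, edgeR adjusted p = 3.85e-10). The call was made under all 12 alternatives, with log2 fold changes from 0.68 to 0.78 and adjusted p from 1.11e-26 to 0.00997.

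SEMA3F (gene ID 6405) encodes a class 3 semaphorin whose preferred co-receptor is NRP2. It was at 9 and 8.47 FPKM with the empty vector and 10.47 and 12.33 FPKM with HOXD13. The groups did not overlap, but the HOXD13 libraries lay further from each other than the empty-vector libraries did. It rose by the test (log2 fold change 0.37, SE 0.102, edgeR adjusted p = 0.0118). Leaving out empty-vector replicate 2 ended the call (adjusted p = 0.0628), as did leaving out HOXD13 replicate 2 (log2 fold change 0.24, adjusted p = 0.209); the alternatives spanned 0.000982 to 0.209. The DESeq2 Wald test (0.0912) and limma on log2(FPKM + 1) (0.104) did not call it. An antisense gene, SEMA3F-AS1, is annotated by RefSeq on the opposite strand with a start inside SEMA3F, and no source used here says that counting used strand, so reads of the pair cannot be told apart.

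SEMA4B (gene ID 10509) encodes a membrane-bound class 4 semaphorin. Its levels were 9.79 and 8.76 FPKM with the empty vector and 10.8 and 11.15 FPKM with HOXD13, without overlap. The difference did not pass the threshold (log2 fold change 0.22, 95% interval 0.03 to 0.42, edgeR adjusted p = 0.115), and no alternative called it. Of the summed FPKM of the 5 class 3 semaphorins with a row, SEMA3C held 0.397 and 0.372 with the empty vector. With HOXD13 SEMA3C held 0.469 and 0.435. The ratio of SEMA3C to SEMA3F levels was 1.41 and 1.47 with the empty vector and 2.09 and 1.65 with HOXD13.

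Of the class A plexins, the receptors that pair with neuropilins, PLXNA3 rose and PLXNA1 was not called. PLXNA3 (gene ID 55558) was at 4.66 and 4.85 FPKM in the empty-vector libraries and 6.74 and 6.23 FPKM in the HOXD13 libraries, without overlap. It rose by the test (log2 fold change 0.44, SE 0.0947, edgeR adjusted p = 0.00135). Limma on log2(FPKM + 1) did not call it (adjusted p = 0.0847), nor did limma on log2(FPKM + 0.1), and the other 10 alternatives did. A fraction of its reads in 1 library was divided with another gene.

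PLXNA1 (gene ID 5361) was the most abundant class A plexin in every library, at 8.68 and 9.13 FPKM with the empty vector and 8.62 and 8.51 FPKM with HOXD13. The HOXD13 values lay just below the others, and the test did not call the gene (log2 fold change -0.07, 95% interval -0.20 to 0.06, edgeR adjusted p = 0.540). The interval leaves out a rise of the size seen for PLXNA3; the difference between these genes was not tested. PLXNA2 (gene ID 5362) had 21, 12, 26.08 and 39 counts in the order empty-vector replicates 1 and 2 and HOXD13 replicates 1 and 2, or 0.24, 0.15, 0.26 and 0.4 FPKM. Its log2 fold change of 0.75 had a wide interval, 0.01 to 1.5, and was not called (edgeR adjusted p = 0.173). At this depth a change of PLXNA2 of that size or smaller could not be told from the spread.

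Against the summed class A plexins, NRP1 stood at a ratio of 4.25 and 3.94 in FPKM with the empty vector and 6.76 and 6.88 with HOXD13. NRP1 was picked for its rise, so the higher ratio with HOXD13 repeats that choice. These ratios set levels per length side by side and say nothing of protein.

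The class B plexins were called higher by small amounts. PLXNB2 (gene ID 23654), a receptor for class 4 semaphorins, was at 64.32 and 69.23 FPKM with the empty vector and 73.5 and 73.92 FPKM with HOXD13, without overlap (log2 fold change 0.13, SE 0.0367, edgeR adjusted p = 0.0134). The empty-vector libraries differed from each other by more than the HOXD13 libraries did, and leaving out empty-vector replicate 1 gave a log2 fold change of 0.07 with no call (adjusted p = 0.447). The DESeq2 Wald test (0.0503) and limma on log2(FPKM + 1) (0.158) did not call it either. PLXNB2 supplied 65.7% to 67.2% of all plexin FPKM in each of the 4 libraries.

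PLXNB1 (gene ID 5364), the receptor of SEMA4D that also associates with the receptor kinases ERBB2 and MET, was at 9.1 and 9.38 FPKM with the empty vector and 10.4 and 10.93 FPKM with HOXD13. The groups did not overlap (log2 fold change 0.20, SE 0.0688, edgeR adjusted p = 0.0426). This call held under 5 of 12 alternatives, the fewest of the called members: leaving out a library ended it in 3 of 4 cases, with adjusted p of 0.248 for empty-vector replicate 1, 0.105 for empty-vector replicate 2 and 0.212 for HOXD13 replicate 2. Removing expression and length trends ended it too (0.0991). The DESeq2 Wald test (0.198) and limma on log2(FPKM + 1) (0.207) did not call it.

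By level, PLXNB2, NRP1 and SEMA3C led the empty-vector libraries and were separate from each other and from the rest. SEMA4B, PLXNB1, PLXNA1 and SEMA3F followed at means of 9.28 to 8.74 FPKM, where each neighbour's range overlapped the next. PLXNA3 and then PLXNA2 came last, each below the range before it. In the HOXD13 libraries the order was NRP1, PLXNB2 and SEMA3C, all separate, then SEMA3F, SEMA4B and PLXNB1 with overlapping ranges, and then PLXNA1, PLXNA3 and PLXNA2, each separate.

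Leaving NRP1 out, 5 of the 8 members with a row were called higher and 3 were not called, against 16.0% called among all tested genes. Both HOXD13 libraries were above both empty-vector libraries in FPKM for 7 of the 8, against 29.3% of all tested genes, and PLXNA1 was below in both, against 24.8%. All 8 passed the low-count filter. The members were chosen with results of this contrast known, and nothing is read from these counts.

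**Figure D2:**
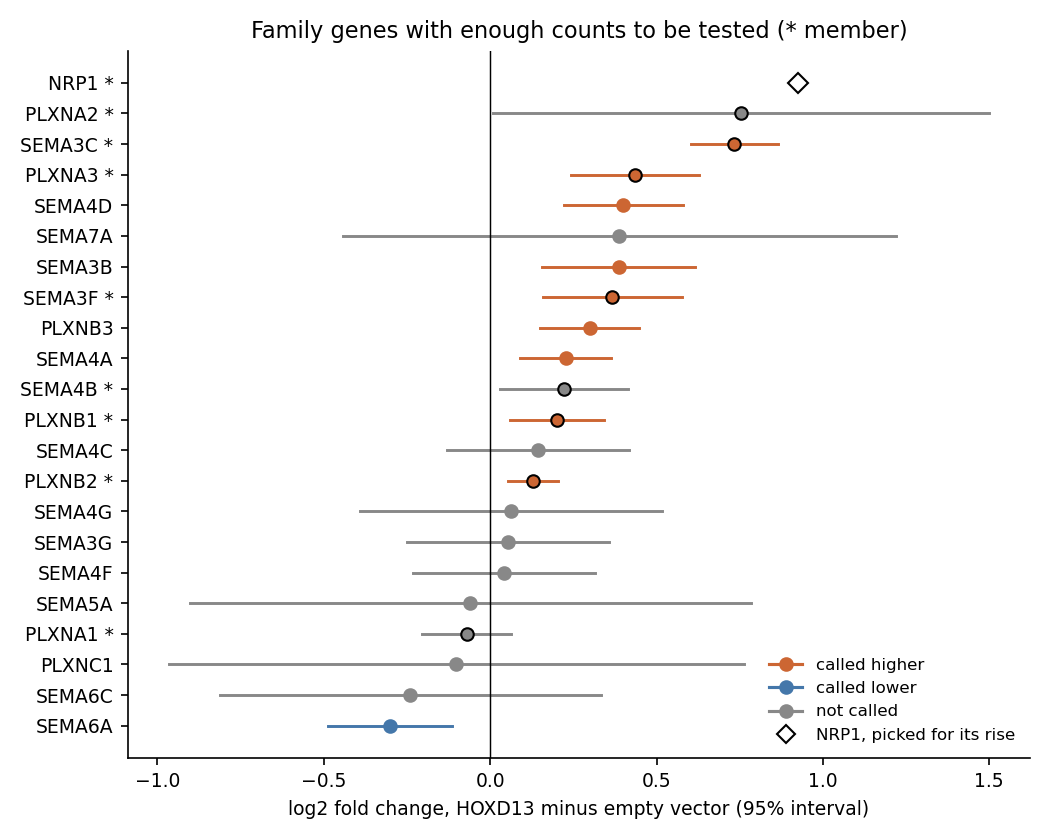
Log2 fold change (HOXD13 minus empty vector) with its 95% interval for each family gene tested; asterisks mark members. NRP1 is drawn without an interval because its rise picked it. The called rises run from 0.13 for PLXNB2 to 0.73 for SEMA3C, and SEMA6A is the called fall at -0.30.

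The promoters of SEMA3C, of PLXNA3 and of PLXNA1 are shown because SEMA3C and PLXNA3 are the called members with the largest fold changes, and PLXNA1 is a close relative of PLXNA3 that was not called. Each window is the 250 bases before an annotated start, from RefSeq on GRCh38.p14, written 5′ to 3′ on the gene's strand. Capitals mark GC boxes, the letters GGGCGG or CCGCCC, which zinc-finger factors of the SP family bind.
SEMA3C, upstream start (chr7:80922390-80922639, minus strand): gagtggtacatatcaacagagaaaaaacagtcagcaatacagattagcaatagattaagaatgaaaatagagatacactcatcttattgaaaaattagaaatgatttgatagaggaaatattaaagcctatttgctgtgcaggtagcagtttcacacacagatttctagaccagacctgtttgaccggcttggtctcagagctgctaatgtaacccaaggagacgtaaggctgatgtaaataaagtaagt
SEMA3C, downstream start (chr7:80919052-80919301, minus strand): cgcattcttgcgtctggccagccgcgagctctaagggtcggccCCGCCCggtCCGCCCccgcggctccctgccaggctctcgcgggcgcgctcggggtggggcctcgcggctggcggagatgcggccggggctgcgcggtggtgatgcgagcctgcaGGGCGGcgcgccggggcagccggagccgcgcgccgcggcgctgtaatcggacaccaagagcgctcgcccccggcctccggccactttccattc
PLXNA3 (chrX:154458031-154458280, plus strand): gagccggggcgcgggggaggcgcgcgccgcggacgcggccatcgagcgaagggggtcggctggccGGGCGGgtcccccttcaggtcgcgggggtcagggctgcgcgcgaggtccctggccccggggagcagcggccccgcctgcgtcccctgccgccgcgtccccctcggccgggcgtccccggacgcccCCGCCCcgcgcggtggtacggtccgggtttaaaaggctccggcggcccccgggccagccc
PLXNA1 (chr3:126982865-126983114, plus strand): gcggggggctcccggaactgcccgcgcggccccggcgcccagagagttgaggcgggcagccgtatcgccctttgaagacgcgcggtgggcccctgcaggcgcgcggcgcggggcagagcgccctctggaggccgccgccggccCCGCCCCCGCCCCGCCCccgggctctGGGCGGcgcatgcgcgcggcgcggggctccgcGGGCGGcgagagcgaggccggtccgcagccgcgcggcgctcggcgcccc

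The annotated starts of SEMA3C lie in unlike sequence: the upstream window is 36.4% G and C with no GC box, and the downstream window is 77.6% with 3 GC boxes. The PLXNA3 window is 82.8% G and C with 2 GC boxes, and that of PLXNA1 is 84.4% with 5. RefSeq windows were matched for 9 members, 15 windows in all, NRP2 included and with NRP1 the exception. GC boxes stood in 11 of the 15, and in 42.6% of 34788 such windows over the genome. The median G and C content was 58% over all windows and 36.4% to 84.4% among the members' windows. The letters CAATAAA, a core bound by posterior HOX proteins, were also searched on both strands. No member window held them, and 3.68% of all windows did. A match or its absence in these letters describes the window and draws nothing about a factor.

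The full family was taken as 31 genes: the neuropilins, 9 plexins and 20 semaphorins. Leaving NRP1 out, 27 of the other 30 had a row, and NRP2, SEMA3A and SEMA3D had none. Of the 27, 21 had enough counts to be tested and 6 did not. Of the 21, 9 were called higher, 1 lower and 11 were not called, against 7.91% and 8.11% of all tested genes. The median log2 fold change of the 21 was 0.20, against 0.00 over all tested genes. Without empty-vector replicate 1 the count of called rises fell to 3, and without empty-vector replicate 2 or HOXD13 replicate 1 no fall was called by edgeR, with 1 fall at an unadjusted p under 0.05 in each. The DESeq2 Wald test called 4 higher and limma on log2(FPKM + 1) called 1, SEMA3C. At an unadjusted p under 0.05 they gave 8 and 10 rises, against 11 by edgeR.

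Outside the members, the called rises were SEMA4D, SEMA3B, PLXNB3 and SEMA4A, and the called fall was SEMA6A. SEMA4D, the ligand of PLXNB1, was at 8.34 and 9.53 FPKM with the empty vector and 12.24 and 11.48 FPKM with HOXD13, a rise (log2 fold change 0.40, SE 0.0874, edgeR adjusted p = 0.00141), with some of its reads divided with other genes. Leaving out empty-vector replicate 1 ended the SEMA4D call (adjusted p = 0.0600). SEMA3B, which lies near SEMA3F on chromosome 3 and is known with it as a candidate tumour suppressor, was at 7.36 and 9.06 FPKM and at 10.9 and 10.68 FPKM (log2 fold change 0.39, edgeR adjusted p = 0.0161). The empty-vector libraries of SEMA3B were far apart, and leaving out replicate 1 of them ended the call (log2 fold change 0.23, adjusted p = 0.316). Antisense genes are annotated beside SEMA3B and PLXNB3 as well, and their reads cannot be told apart without strand.

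PLXNB3, the receptor of SEMA5A, was at 9.01 and 9.24 FPKM with the empty vector and 11.59 and 11.11 FPKM with HOXD13 (log2 fold change 0.30, edgeR adjusted p = 0.00407), a call that leaving out empty-vector replicate 1 ended (adjusted p = 0.0567). All 3 class B plexins were thus called higher by edgeR, where 7.91% of all tested genes were. Limma on either scale called none of them, and the DESeq2 Wald test called only PLXNB3 (adjusted p = 0.0476). SEMA4A, a membrane-bound semaphorin known in immune cells, was the most abundant semaphorin in every library, at 21.24 and 20.99 FPKM and at 24.82 and 24.31 FPKM (log2 fold change 0.23, edgeR adjusted p = 0.0172). The groups of SEMA4A were well apart in FPKM, yet leaving out either empty-vector replicate or HOXD13 replicate 1 ended the call, with adjusted p of 0.0988, 0.0889 and 0.0687 in turn.

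SEMA6A, a transmembrane semaphorin that binds PLXNA2 and PLXNA4, went the other way. It was at 6.28 and 6.87 FPKM with the empty vector and 5.26 and 5.52 FPKM with HOXD13, without overlap (log2 fold change -0.30, SE 0.0915, edgeR adjusted p = 0.0214). Leaving out empty-vector replicate 2 (adjusted p = 0.186) ended the call, as did leaving out HOXD13 replicate 1 (0.111). Outside the members, the family genes that reached a mean of 1 FPKM and were not called were SEMA4C, SEMA3G, SEMA4F, SEMA4G and SEMA6C. SEMA4C, a ligand of PLXNB2, had a log2 fold change of 0.14 (95% interval -0.13 to 0.42). SEMA3G had 0.05, SEMA4F 0.04, SEMA4G 0.06 and SEMA6C -0.24, each with an interval that spans 0. PLXNC1, SEMA5A and SEMA7A, each under 1 FPKM, were not called either. PLXNA4, PLXND1, SEMA3E, SEMA5B, SEMA6B and SEMA6D had too few counts, at most 10 in any library.

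Sums by class are over the genes with a row. Class 3 semaphorins stood at 31.9 and 33.4 FPKM with the empty vector and 46.6 and 46.7 FPKM with HOXD13. Class 4 semaphorins were at 49.1 and 48.6 FPKM against 58.2 and 57.3 FPKM. Class 6 semaphorins were lower, from 8.01 and 8.08 FPKM to 6.64 and 6.92 FPKM. Class B plexins were at 82.4 and 87.9 FPKM against 95.5 and 96.0 FPKM, and class A plexins at 13.8 and 14.4 FPKM against 15.8 and 15.3 FPKM. In each of these sums the groups did not overlap, and the sums were not tested. Such separation in FPKM was common: of all tested genes, 29.3% separated upward with HOXD13 and 24.8% downward. Some sums follow a single gene. Most of the class 6 difference was that of SEMA6A (6.28 and 6.87 against 5.26 and 5.52 FPKM). In class A, PLXNA3 rose (4.66 and 4.85 against 6.74 and 6.23 FPKM), while PLXNA1 was slightly lower with HOXD13. Of the summed FPKM of the 28 family genes with a row, NRP1 made up 23.9% and 22.6% with the empty vector. With HOXD13 NRP1 made up 32.3% and 32.1%, a difference that repeats what picked it.

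**Figure D3:**
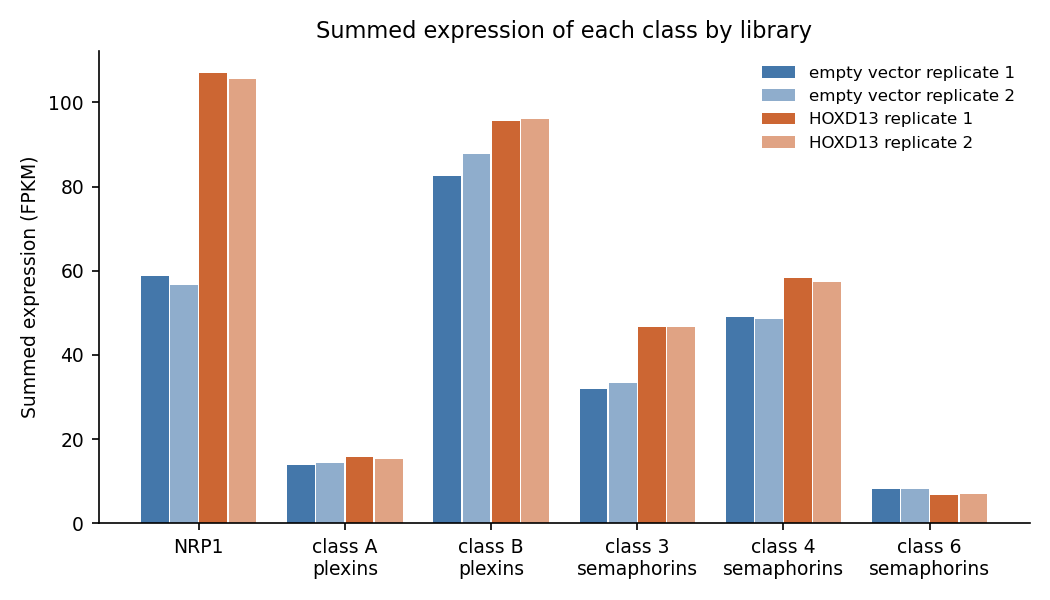
Summed FPKM of NRP1, of class A and B plexins and of class 3, 4 and 6 semaphorins, 1 bar per library. NRP1, a single gene picked for its rise, has means of 57.6 and 106 FPKM. Of the summed classes drawn, class 3 semaphorins show the widest gap between groups (31.9 and 33.4 to 46.6 and 46.7 FPKM). Class 6 is lower with HOXD13.

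Among the ligands and receptors of VEGF, whose signal neuropilins assist, 2 ligand genes rose and 2 receptor genes were tested but not called, where 7.91% of all tested genes were called higher. VEGFA, the main angiogenic ligand, was at 22.33 and 20.55 FPKM with the empty vector and 29.69 and 28.73 FPKM with HOXD13, without overlap (log2 fold change 0.41, SE 0.0632, edgeR adjusted p = 1.5e-05), a call made under all 12 alternatives. VEGFB was at 6.13 and 7.47 FPKM and at 12.23 and 10.78 FPKM (log2 fold change 0.76, SE 0.148, edgeR adjusted p = 0.000393), a call made under the 11 alternatives that gave it an adjusted p; the DESeq2 Wald test gave none. KDR, the main VEGF receptor of endothelium, had at most 6.23 counts in any library. FLT1 (log2 fold change -0.05) and FLT4 (0.41) were tested and not called.

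Among 10 adhesion and kinase partners, 6 were tested, 4 were called higher and 2 were not called, where 7.91% of all tested genes were called higher. EGFR and ERBB2, receptor kinases that plexin signalling can engage, rose with log2 fold changes of 0.44 (edgeR adjusted p = 9.27e-06) and 0.30 (edgeR adjusted p = 3.56e-06). The kinase-like receptor PTK7 (0.24) and the integrin gene ITGB1 (0.11) rose as well. Leaving out empty-vector replicate 1 ended both of these calls (adjusted p = 0.155 and 0.0940), and leaving out empty-vector replicate 2 ended that of ITGB1 (0.142). Limma on log2(FPKM + 1) called neither PTK7 (adjusted p = 0.0774) nor ITGB1 (0.0957). The DESeq2 Wald test did not call PTK7 (adjusted p = 0.0703) and did call ITGB1 (0.0436). MET had 11.62 to 26.82 counts per library and was not called. GIPC1, whose product binds the tail of NRP1, was abundant and not called, at 45.99 and 44.85 FPKM with the empty vector and 45.15 and 44.57 FPKM with HOXD13 (log2 fold change -0.02, 95% interval -0.15 to 0.11).

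Of the 6 proteases that cut semaphorins or release them, ADAM10 rose (log2 fold change 0.17, edgeR adjusted p = 0.0212) and 5 were not called, so 16.7% were called, near the 16.0% of all tested genes. Leaving out empty-vector replicate 1 (adjusted p = 0.275) ended the ADAM10 call, as did leaving out HOXD13 replicate 1 (0.170). The DESeq2 Wald test (adjusted p = 0.128) and limma on log2(FPKM + 1) (0.126) did not call ADAM10 either. FURIN, which cleaves class 3 semaphorins, was at 10.44 and 12.77 FPKM and at 13.45 and 14.02 FPKM, and did not pass (log2 fold change 0.23, edgeR adjusted p = 0.0659). Downstream of the plexins, 28 of 32 signalling genes were tested and 1 was called, or 3.57% against 16.0% of all tested genes. The 27 not called include the GTPase genes RHOA, RAC1, RRAS and RAP1A and the exchange factor genes ARHGEF11 and ARHGEF12, which class B plexins bind. CFL1, the gene of the actin-severing protein cofilin, fell from 505.07 and 492.15 FPKM to 448.43 and 457.41 FPKM (log2 fold change -0.15, edgeR adjusted p = 0.000975). With expression and length trends removed that call was lost (adjusted p = 0.0544, log2 fold change -0.09). Limma on log2(FPKM + 1) did not call CFL1 either (adjusted p = 0.0570). Over the 4 lists together, 44 genes were tested, 7 were called higher and 1 lower. That is 18.2% called, near the 16.0% of all tested genes, with a median log2 fold change of 0.10 against 0.00 over all tested genes.

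**Figure D4:**
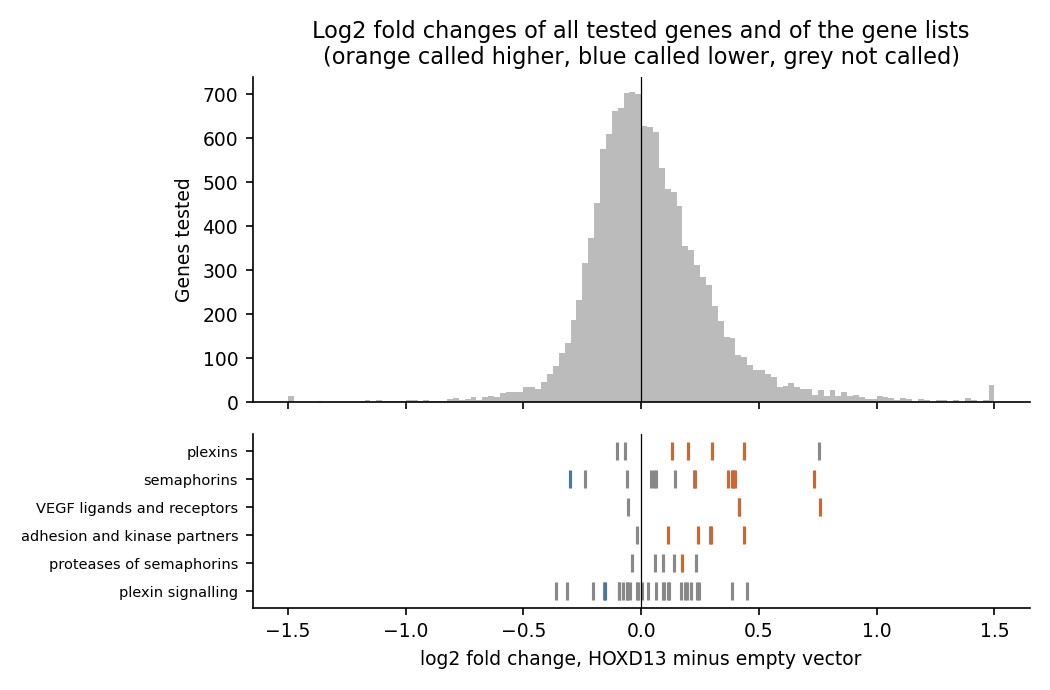
Above, the number of tested genes by log2 fold change (HOXD13 minus empty vector), with values beyond the outermost bins gathered in them; below, 1 tick per tested gene of each list. Plexins and semaphorins lie mostly right of 0 (median 0.20 for the 21 tested without NRP1), and the plexin signalling genes spread on both sides (median 0.02).

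Fold changes in these libraries ran with level and length. The quintile medians of log2 fold change over all tested genes were 0.15 in the quintile with the lowest FPKM and -0.08 in the quintile with the highest. By length, they were -0.05 in the shortest quintile and 0.04 in the longest. NRP1 and PLXNB2 lie in the quintile with the highest FPKM. With both trends removed from each library, log2 fold changes were 0.92 for NRP1, 0.72 for SEMA3C, 0.38 for PLXNA3, 0.34 for SEMA3F, 0.12 for PLXNB2 and 0.17 for PLXNB1, and 8 of the family's rises were called.

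NRP1 and VEGF receptors are also expressed by endothelium, and markers of other cell types were read beside the family. Endothelial markers with a row, 5 of 7, summed to 26.7 and 27.4 CPM with the empty vector and 37.4 and 37.4 CPM with HOXD13. Most of this was VWF (156, 139, 264 and 231 counts), which was called higher (log2 fold change 0.52, edgeR adjusted p = 0.00195). The other endothelial markers tested, PECAM1 (log2 fold change 0.17, edgeR adjusted p = 0.758) and EMCN (0.51, 0.546), had overlapping groups and were not called. TEK had at most 2 counts. Fibroblast markers, 4 of 6 with a row, summed to 37.5 and 42.6 CPM and to 39.0 and 37.5 CPM, nearly all COL1A1. Leukocyte markers summed to 65.5 and 58.7 CPM and to 65.6 and 67.8 CPM. Nearly all of this was LYZ (351.79, 306.06, 424.94 and 441.28 counts) and CD68 (134.37, 85.16, 127.48 and 105.07 counts). PTPRC had 9.86 to 20 counts per library, and none of LYZ, CD68 and PTPRC was called. CD3E had 0 counts in all libraries, and CD14 had 3 or fewer. Every library is labelled as LNCaP, a cell line, and the part of other cell types in the family's values was not tested. In bulk RNA, a change in the number of cells of a kind and a change in RNA per cell cannot be told apart.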

How the data were processed

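Polyadenylated RNA of 4 LNCaP libraries, 2 per group, was read from the deposited tables. Per the submitters' processing notes, Bowtie2 and RSEM were used and the builds hg18 and hg19 are named; no source used here gives versions, the annotation or what each build was for, so positions are printed only for RefSeq promoters. Per the file headers, each library's table holds RSEM expected counts, a gene length and FPKM. The deposited FPKM table of the whole series matched the FPKM of the library tables to the last decimal. A gene missing from a library's table was given 0.

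Expected counts, fractional where reads are shared between genes, were rounded and tested with edgeR 4.0.16 in R 4.3.3 (quasi-likelihood, robust fit, TMM, filterByExpr, Benjamini-Hochberg over 14112 genes, threshold 0.05), HOXD13 minus empty vector. The standard error is the absolute log2 fold change over the square root of F. Exact permutation of 2 against 2 libraries has a smallest p of 0.333, so it was left aside. Intervals are 95%. Between replicates, chi-square per degree of freedom was 1.57 with the empty vector and 1.76 with HOXD13. It was computed on rounded expected counts that include shared reads, so it cannot settle whether replicates were made as separate libraries. The script was tested on simulated data.

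Members and gene lists were chosen with earlier results of these data known. Named are all members, family genes that were called or had a mean of at least 1 FPKM, up to 5 called genes of each partner list, HOXD13 and the 5 genes nearest to NRP1 in pattern (log2 of CPM + 0.5); KDR, FLT1, FLT4, MET, GIPC1, FURIN, the GTPase and exchange factor genes and the cell type markers are named as list members outside that rule. Alternatives were DESeq2 1.42.0 size factors, the DESeq2 Wald test, limma 3.58.1 on log2(FPKM + 1) or log2(FPKM + 0.1) where 2 libraries reached 1 FPKM, a replicate block, filtering at a mean of 50 counts or not at all, expression and length trends removed (mgcv 1.9.3) and each library left out. Some marker genes and a motif that were computed are not reported here.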

Additional observations from a re-analysis of the deposited data

How the results depend on the processing

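The count of all genes called was 1116 higher and 1144 lower. By the DESeq2 Wald test it was 473 and 578, by limma on log2(FPKM + 1) 398 and 261, and by limma on log2(FPKM + 0.1) 382 and 265. With 1 library left out it ran from 751 to 927 higher and from 714 to 1064 lower. Of the family without NRP1, 9 genes were called higher and 1 lower. The DESeq2 Wald test gave 4 and 0, and limma gave 1 and 0 on either scale, with 1 fall at an unadjusted p under 0.05 in each. Family rises at an unadjusted p under 0.05 numbered 8 by DESeq2 and 10 by limma on either scale, against 11 by edgeR. With 1 library left out, the family counts ran from 3 to 8 higher and from 0 to 1 lower. Of the partner lists, 7 were called higher and 1 lower. The DESeq2 Wald test and limma on either scale gave 4 higher. Partner rises at an unadjusted p under 0.05 numbered 7 by DESeq2 and 9 by limma on either scale, against 12 by edgeR. Limma on either scale gave 0 lower with 2 at an unadjusted p under 0.05, and removed trends gave 0 lower with 3. With 1 library left out, partner counts ran from 5 to 8 higher and from 1 to 2 lower. Why fewer genes were called was not tested, beyond the smaller number of libraries where 1 was left out.

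Directions turned only for genes that were not called: SEMA3G (-0.021 with trends removed, and from -0.082 to 0.19 with 1 library left out), SEMA4F (-0.036, and from -0.081 to 0.16) and SEMA4G (-0.074, and from -0.011 to 0.13). Over 28 named genes and 324 values under alternatives, 60 lost a call and 7 turned direction; values to which DESeq2 gave no adjusted p, SEMA3B and VEGFB among them, are left out. With the replicate block, 9 family genes were called higher and 1 lower, as without it, and 9 partner genes were called higher against 7. No gene listed by the naming rule changed its call. That rule names partner genes only if they were called without the block, so a call gained by a partner gene cannot show there. The deviations of same-numbered libraries had r = 0.0733 across genes, so the numbers were not taken to pair the libraries. Genes under about 10 counts per library, such as PLXND1 and SEMA3E, were below what these libraries can compare.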

Other observations

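Among 17 genes of the netrin, slit and repulsive guidance families, 7 were tested, 1 was called higher and 6 were not called, so 14.3% were called, near the 16.0% of all tested genes. NEO1, the neogenin receptor of netrins and RGM proteins, was at 9.44 and 9.25 FPKM with the empty vector and 11.46 and 10.71 FPKM with HOXD13, a rise (log2 fold change 0.23, SE 0.0692, edgeR adjusted p = 0.0187). Leaving out any library but HOXD13 replicate 2 ended the call, with adjusted p of 0.0786 to 0.149, and the alternatives reached 0.154. RGMB, a ligand of neogenin, was at 14.93 and 13.88 FPKM and at 15.67 and 14.87 FPKM and was not called (log2 fold change 0.07), and ROBO1, a slit receptor gene, was not called either (0.18).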
